A study of Mus musculus with 10 samples.

Results

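Mucins are the large glycoproteins of epithelial surfaces, and 8 of their genes were followed: Muc4, Muc5ac, Muc5b, Muc6, Muc13, Muc15, Muc16 and Muc20. They were chosen by name, and the estimated counts and TPM (a level per transcript length that sums to the same total in each library) of their transcripts were summed in each of 10 RNA-seq libraries. Of the 8 genes, 6 had transcripts among those matched to a gene name, and 5 of these passed the filter on low counts, out of 17495 genes that passed it. Muc4 and Muc6 had no matched transcript and were not analysed here. Muc15 was measured but lay below the filter.

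The libraries came from epithelial cells that were flow-sorted out of orthotopic pancreatic ductal adenocarcinomas (PDAC) of mice. The tumours in both groups grew from T6-LOH organoids, made from the KPC mouse model of PDAC, which were transplanted along with pancreatic stellate cells (PSCs), fibroblast-like cells of the pancreatic stroma. In the 5 Egfr KO PSC libraries the stellate cells were PSC4 EGFR KO B4, a single knockout clone, and in the 5 Egfr WT PSC libraries they were PSC4 ROSA (egfr), read here as the control line with intact Egfr. The knockout was in the stellate cells and not in the sorted cells, and an effect of Egfr loss and one of the clone cannot be told apart with 1 clone. The series title names NSG hosts, which are immunodeficient, while the strain label of all libraries is C57BL/6J. Whether every library is from its own mouse is not in the labels, so p-values here reflect the spread of the libraries alone.

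Mucins share domains rich in serine, threonine and proline, the residues to which chains of O-linked sugars are attached. The gel-forming mucins Muc5ac, Muc5b and Muc6 are secreted from granules and joined by disulphide bonds into a mucus network, while Muc4, Muc13, Muc15, Muc16 and Muc20 are held in the cell membrane. In the pancreas, normal ducts make little MUC5AC, and human PDAC and its precursor lesions are known to gain mucins of the stomach type, with MUC5AC and MUC4 among them. Membrane mucins are also known as partners of growth factor receptors, such as MUC4 with ERBB2 in rat and human cells.

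The shared chemistry can be read from the coding sequences. For each measured gene a script searched its GENCODE M21 transcripts for the 20 codons with the most serine, threonine and proline, which are printed in capitals in the stretches of 60 bases below. They are shown because they are the feature that makes these otherwise different genes 1 group.

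Muc5ac-202: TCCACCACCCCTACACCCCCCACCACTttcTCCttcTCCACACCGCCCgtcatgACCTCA
Muc5b-201: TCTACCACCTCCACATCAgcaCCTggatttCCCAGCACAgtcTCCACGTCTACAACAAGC
Muc13-201: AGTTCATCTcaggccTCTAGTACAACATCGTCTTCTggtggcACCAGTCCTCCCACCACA
Muc15-202: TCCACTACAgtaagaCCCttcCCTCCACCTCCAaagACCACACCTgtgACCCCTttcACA
Muc16-204: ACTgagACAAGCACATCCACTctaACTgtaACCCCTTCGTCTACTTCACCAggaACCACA
Muc20-201: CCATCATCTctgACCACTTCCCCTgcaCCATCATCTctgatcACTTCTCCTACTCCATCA

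Of the 20 codons, 16 were of this kind in each of the 5 genes above the filter and 14 in Muc15. Each stretch was picked for this number, and genes other than mucins were not searched. Over the whole coding sequence, serine, threonine and proline made up 42.8% of Muc20-201, 38.8% of Muc16-204 and 38.0% of Muc13-201. They made up 34.1% of Muc15-202, 33.8% of Muc5b-201 and 31.2% of Muc5ac-202. The gel-forming genes were the richest in cysteine, the residue of the disulphide bonds, with 7.38% in Muc5ac-202 and 6.27% in Muc5b-201. The membrane genes held 3.49% in Muc13-201, 0.46% in Muc20-201, 0.48% in Muc16-204 and 0.3% in Muc15-202. Muc5ac and Muc5b lie on chromosome 7, Muc13 and Muc20 on chromosome 16, Muc16 on chromosome 9 and Muc15 on chromosome 2.

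The total estimated count in genes lay between 39534055 and 52920545 in the Egfr KO PSC libraries and between 42040398 and 53816086 in the Egfr WT PSC libraries. The markers of ductal epithelium were abundant, with all 8 above the filter and a summed level of 14360 to 25570 CPM (counts scaled to a fixed library total with TMM factors) in Egfr KO PSC and 16540 to 17810 CPM in Egfr WT PSC libraries. Epcam averaged 225 ± 29.8 CPM in Egfr KO PSC and 225 ± 73.2 CPM in Egfr WT PSC libraries (SD, n = 5 each). Markers of other cells differed in part. The mean log2(CPM + 1) of 12 macrophage markers was 0.35 lower in Egfr KO PSC libraries (difference -0.35, exact two-sided permutation p = 0.0397, 0.190 after Benjamini-Hochberg adjustment over 12 measures). That of 12 fibroblast markers was lower too (difference -0.38, exact permutation p = 0.0714, adjusted 0.214), and that of 4 erythroid markers differed most (difference -1.60, exact permutation p = 0.00794, the smallest possible, adjusted 0.0952). The 4 lymphocyte markers summed to at most 0.532 CPM in Egfr KO PSC and 0.485 CPM in Egfr WT PSC libraries.

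The mucin transcripts spanned a wide range of levels. Measured in TPM, Muc20 and Muc13 were the most abundant of the measured members, Muc16, Muc5ac and Muc5b averaged under 1 TPM in either group, and Muc15 was near 0. The measured members together summed to 18.6 to 66.4 TPM in Egfr KO PSC and 20.8 to 66.4 TPM in Egfr WT PSC libraries. Of this sum, Muc13 and Muc20 made up 89.7% to 97.2% in Egfr KO PSC and 95.4% to 99.01% in Egfr WT PSC libraries. Muc13 and Muc20 were neighbours in this order, with Muc13 above Muc20 in 3 of 10 libraries. Both were above Muc16, Muc5ac and Muc5b in 10 of 10. Muc5ac was above Muc5b in 10 of 10 libraries and above Muc16 in 5 of 10. These 5 were Egfr KO PSC library 5 and Egfr WT PSC libraries 1 to 4. The TPM of Muc16 depends on how its counts were divided between transcripts of unlike length, which is an estimate. Muc1, a membrane mucin outside the 8 genes that is a classical marker of pancreatic ducts, was above every measured member in all 10 libraries, by 10.7 to 17.6 times their sum in Egfr KO PSC and 12.0 to 50.03 times in Egfr WT PSC libraries.

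**Figure D1:**
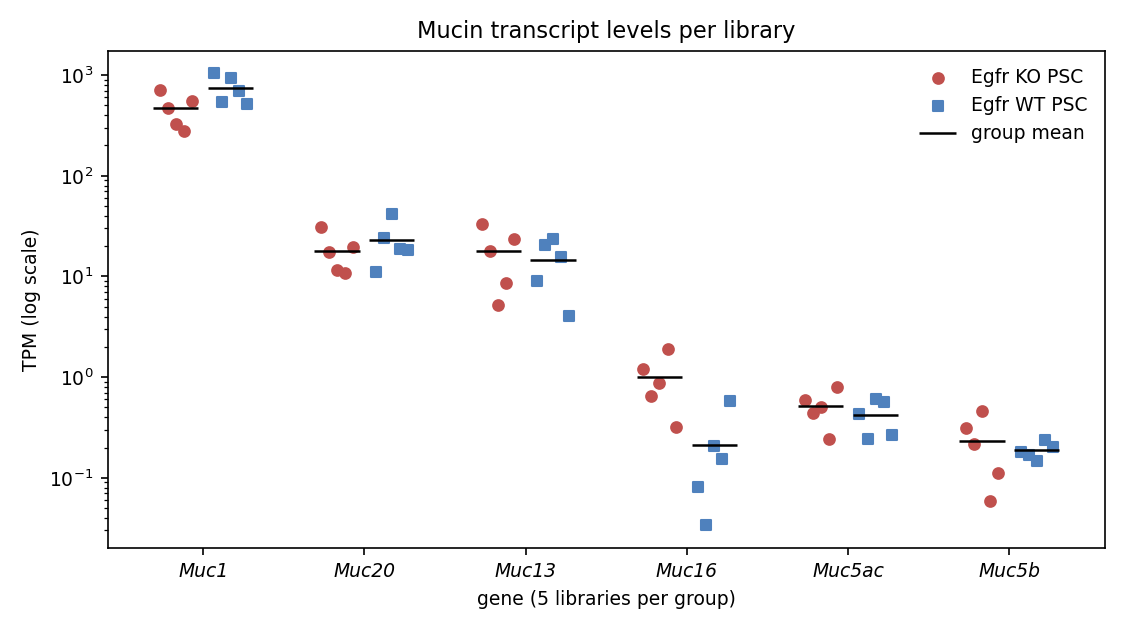
Level of Muc1 and of the 5 tested mucin genes in each library, in TPM on a log axis. Circles are the 5 Egfr KO PSC libraries, squares the 5 Egfr WT PSC libraries and lines the group means, and Muc15, at 0 in 9 libraries, is not drawn. Muc1 lies above all members drawn, Muc20 and Muc13 form a middle pair, and the groups separate most for Muc16.

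The comparison of tumours with Egfr KO PSCs and Egfr WT PSCs asks how the stellate cell genotype relates to expression in the carcinoma cells. In edgeR's quasi-likelihood F test, 0 of the 5 tested mucins passed an adjusted p of 0.05, and neither did any other gene (background 0.0% of 17495). At an unadjusted p under 0.05 there was 1 of 5, Muc16, against 1426 of all genes tested (8.15%). By direction, 3.55% of all genes were past that value with a higher level in Egfr KO PSC libraries and 4.60% with a lower one. DESeq2, run as an alternative, called 1 of the 5 mucins, again Muc16, and 127 of all genes (0.726%). The 5 libraries of each group overlapped for all 5 mucins, while 1.52% of all genes had no overlap. The median log2 fold change was 0.34 over the 5 mucins, with 4 higher and 1 lower, and 0.00041 over all genes tested.

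Muc16 had the largest difference among the members. The gene encodes a very large membrane-tethered mucin that binds mesothelin and is the source of a serum marker of ovarian cancer in humans. Its estimated counts were 169, 73, 49, 280 and 64 in Egfr KO PSC libraries 1 to 5, against 14, 16, 22, 38 and 63 in Egfr WT PSC libraries 1 to 5. In CPM these were 3.29, 1.41, 1.13, 6.67 and 1.496 in Egfr KO PSC libraries, against 0.321, 0.302, 0.436, 0.900 and 1.46 in Egfr WT PSC libraries. All 5 Egfr KO PSC libraries were above 4 of the 5 Egfr WT PSC libraries, and Egfr WT PSC library 5 lay among them. The means were 2.80 ± 2.32 CPM in Egfr KO PSC and 0.683 ± 0.495 CPM in Egfr WT PSC libraries (SD, n = 5 each), a 4.11-fold difference. The log2 fold change was 2.04 (SE 0.59, 95% confidence interval 0.75 to 3.33, edgeR adjusted p = 0.440), with an unadjusted edgeR p of 0.00493 that ranked 191 among all genes.

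The size of the Muc16 difference depended on single libraries and on the scale. It was 1.43 without Egfr KO PSC library 4 and 2.52 without Egfr WT PSC library 5, and lay between these values without any other single library. DESeq2 gave 2.04 (adjusted p = 0.0431), and over all other alternatives, single libraries left out included, the adjusted p from edgeR or limma lay between 0.218 and 0.999. On the scale of log2(TPM + 1) the difference was 0.69, with most values below 1 TPM. With the macrophage marker score as a covariate it was 0.81, and with the fibroblast score 2.45. In this bulk RNA, fewer cells of a type and less RNA per cell cannot be told apart.

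Markers of mesothelium, a lining that also makes Muc16, went in both directions, with 2 of the 4 tested higher and 2 lower in Egfr KO PSC libraries. The mean log2(CPM + 1) of the 5 listed markers was 5.87 in Egfr KO PSC and 5.98 in Egfr WT PSC libraries (difference -0.10, exact two-sided permutation p = 0.492). The lower ones were Wt1 and Upk3b, at 0.159 ± 0.0980 and 0.854 ± 0.668 CPM in Egfr KO PSC libraries, against 0.440 ± 0.227 and 1.93 ± 0.757 CPM in Egfr WT PSC libraries (SD, n = 5 each). Lrrn4 lay below the filter. The higher ones were Msln and Krt19, at 1542 ± 830 and 4339 ± 1106 CPM in Egfr KO PSC libraries, against 1127 ± 100.1 and 3465 ± 216 CPM in Egfr WT PSC libraries (log2 fold changes 0.45 and 0.32, edgeR adjusted p = 0.723 and 0.637). Both are also made by carcinoma cells, and they carried the summed level of 4192 to 9035 CPM in Egfr KO PSC and 4497 to 4812 CPM in Egfr WT PSC libraries. The part of mesothelial cells in the Muc16 values was not tested. Of the macrophage markers, 9 of 12 were lower in Egfr KO PSC libraries, with a summed level of 224 to 337 CPM there and 275 to 468 CPM in Egfr WT PSC libraries. The 3 that were higher were Mrc1, Csf1r and Cd68, at 39.4 ± 16.4, 7.14 ± 2.06 and 13.1 ± 5.7 CPM in Egfr KO PSC libraries, against 27.2 ± 8.21, 5.94 ± 1.93 and 11.8 ± 4.16 CPM in Egfr WT PSC libraries. Cd14 made up most of the summed level, at 199 ± 57.2 CPM in Egfr KO PSC and 290 ± 70.8 CPM in Egfr WT PSC libraries. Adgre1 and C1qa were among the lower ones and were picked after their values were seen. They were at 0.219 ± 0.131 and 0.564 ± 0.247 CPM in Egfr KO PSC libraries, against 0.512 ± 0.262 and 1.27 ± 0.801 CPM in Egfr WT PSC libraries (SD, n = 5 each).

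**Figure D2:**
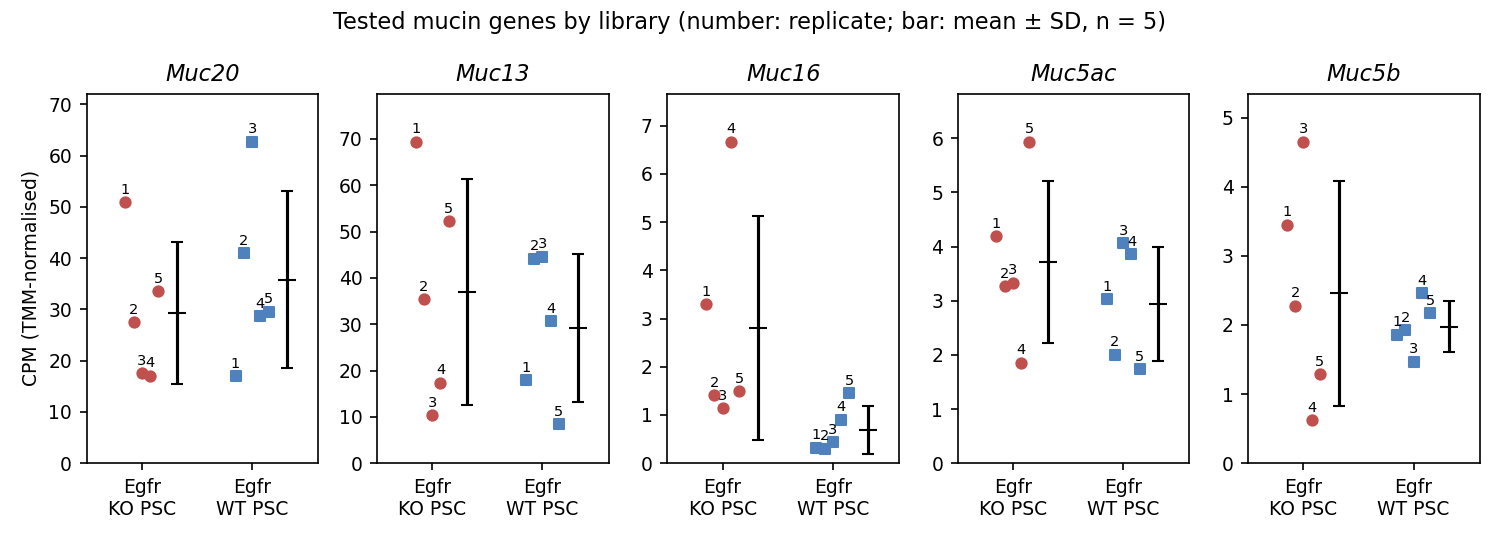
CPM of the 5 tested mucin genes, one panel per gene, with the 5 Egfr KO PSC libraries left of the 5 Egfr WT PSC libraries. Numbers name the replicate, and bars are the mean ± SD. Muc16 is highest in Egfr KO PSC library 4 at 6.67 CPM, and the groups overlap in every panel.

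The Muc16 counts were assigned to 4 annotated transcripts. Muc16-204, of 25437 bases, is the only one that starts near the RefSeq start of the gene, 73 bases from it, while Muc16-202 and Muc16-203 start 52368 bases and Muc16-201 161718 bases further down the gene (GRCm38). Muc16-203 held 46.5% of the Muc16 counts in Egfr KO PSC and 33.2% in Egfr WT PSC libraries, and Muc16-204 held 36.4% in Egfr KO PSC and 52.2% in Egfr WT PSC libraries. In counts, Muc16-204 had 35.7, 11.3, 9.5, 142.3 and 32.4 in Egfr KO PSC libraries 1 to 5, against 3.8, 7.8, 10.5, 20.1 and 37.6 in Egfr WT PSC libraries 1 to 5. Library 4 held most of the Egfr KO PSC counts of this transcript. Muc16-203 had 104.2, 45.9, 17.3, 101.6 and 26 counts in Egfr KO PSC libraries, against 9.1, 8.2, 5.8, 16.3 and 11.4 in Egfr WT PSC libraries. For Muc16-203, singled out after its values were seen, the groups did not overlap, with the lowest Egfr KO PSC library at 0.401 CPM and the highest Egfr WT PSC library at 0.386 CPM. Single transcripts were not tested, and the share of all transcripts without overlap was not counted. Over all genes tested that share was 1.52%, and for Muc16 as a gene the groups overlapped. The division between these transcripts is an estimate, since 91.9% of the 31-base words of Muc16-203 and 93.7% of those of Muc16-201 also occur in Muc16-204.

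**Figure D3:**
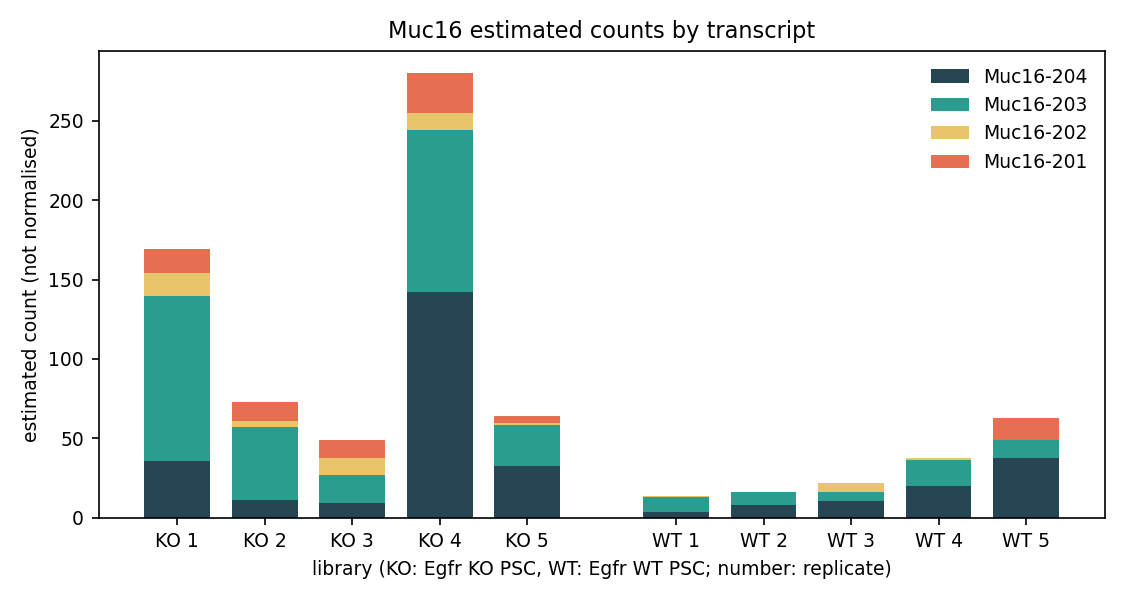
Estimated counts of Muc16 in each library, stacked by transcript and not normalised, with Egfr KO PSC libraries on the left. Egfr KO PSC libraries 1 and 4 stand highest, at 169 and 280 counts, and Muc16-203 is present in all 10 libraries.

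The 250 bases before the RefSeq start of Muc16, at chr9:18674604-18674853 on the minus strand (GRCm38.p6), are shown because this is the member with the largest difference. On neither strand did they hold the TATA box TATAAA, the GC box GGGCGG, the AP-1 motif TGANTCA, the GATA motif AGATAA with its variant TGATAA, or the FOXA motif TGTTTAC. The short E box CANNTG occurred at 2 places.

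Muc16: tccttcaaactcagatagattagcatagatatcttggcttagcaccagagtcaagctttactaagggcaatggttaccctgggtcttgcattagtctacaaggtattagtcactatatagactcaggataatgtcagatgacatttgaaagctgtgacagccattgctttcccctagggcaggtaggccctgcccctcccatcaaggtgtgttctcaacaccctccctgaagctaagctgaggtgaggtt

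Muc13 and Muc20 carried nearly all the TPM of the measured members, which leave out Muc4 and Muc6. Muc13 encodes a transmembrane mucin with EGF-like domains that is common in the gut and raised in several human carcinomas. It had 69.4, 35.4, 10.3, 17.4 and 52.3 CPM in Egfr KO PSC libraries 1 to 5, against 17.9, 44.1, 44.6, 30.7 and 8.40 CPM in Egfr WT PSC libraries 1 to 5. Both the highest and the next highest value were in Egfr KO PSC libraries, the lowest was in an Egfr WT PSC library, and the groups overlapped widely. The means were 37.0 ± 24.4 CPM in Egfr KO PSC and 29.1 ± 16.0 CPM in Egfr WT PSC libraries (SD, n = 5 each). The log2 fold change was 0.34 (95% interval -0.80 to 1.49, adjusted p = 0.888 in edgeR), so changes of more than a doubling in Egfr KO PSC libraries lie within the interval. Without Egfr KO PSC library 1 it was -0.01. In Egfr KO PSC libraries 95.1% of the Muc13 counts lay on Muc13-201 and in Egfr WT PSC libraries 98.0%, the rest on Muc13-202.

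Muc20 encodes a membrane mucin that is known in human cells as a partner of the receptor MET. It had 50.9, 27.5, 17.6, 17.1 and 33.6 CPM in Egfr KO PSC libraries 1 to 5, against 17.0, 40.9, 62.7, 28.7 and 29.6 CPM in Egfr WT PSC libraries 1 to 5. The lowest values of the groups were alike, and the highest was in Egfr WT PSC library 3. The means were 29.3 ± 13.9 CPM in Egfr KO PSC and 35.8 ± 17.3 CPM in Egfr WT PSC libraries (SD, n = 5 each), with a log2 fold change of -0.29 (95% interval -1.07 to 0.50, adjusted p = 0.861 in edgeR). It was 0.01 without Egfr WT PSC library 3 and 0.08 with the macrophage score as a covariate. Muc20-201 held 94.0% of the Muc20 counts in Egfr KO PSC and 95.1% in Egfr WT PSC libraries. Muc20-202, which held the rest, shares 8.11% of its 31-base words in antisense with Muc4-201, and the labels do not say that the counting used strand.

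Muc13 and Muc20 were the pair of members with the highest Pearson correlation across libraries. The Pearson correlation of log2(CPM + 1) was 0.72 over the 10 libraries (permutation p = 0.0212) and Spearman's rho 0.70 (permutation p = 0.0297). Over the 10 pairs of members the adjusted values were 0.212 and 0.148, so neither passed. After removal of the group means r was 0.78 (permutation p = 0.0102, adjusted 0.102), and without Egfr KO PSC library 3 and Egfr WT PSC library 5, the farthest from the median of Muc13, it was 0.88 (permutation p = 0.00703, adjusted 0.0703). Libraries share depth and composition, so this is a description. By rank the closest pair was Muc5ac and Muc13, with a Spearman's rho of 0.76 (permutation p = 0.0144, adjusted 0.144) and a Pearson r of 0.60 (permutation p = 0.0694, adjusted 0.347), and r was 0.32 without Egfr KO PSC library 5 and Egfr WT PSC library 5, the farthest from the median of Muc5ac. No pair passed the adjustment by either measure.

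**Figure D4:**
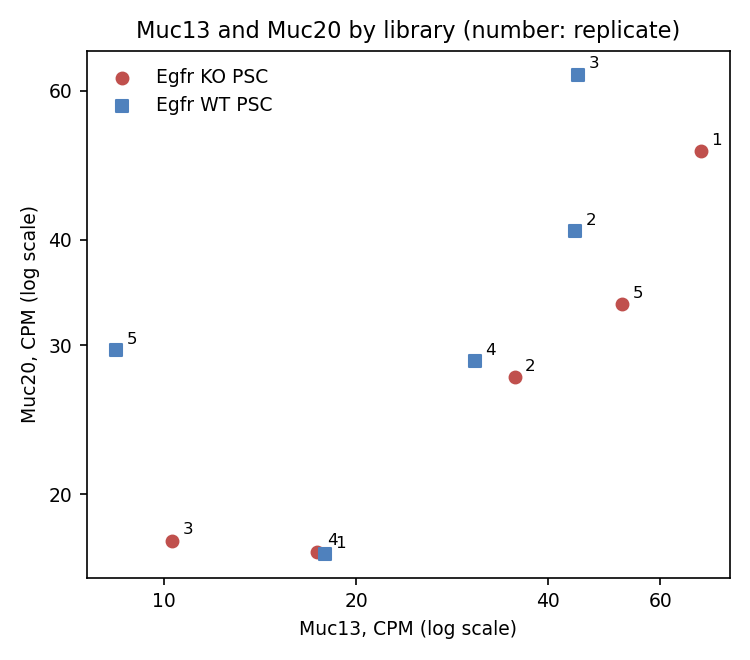
CPM of Muc13 and Muc20 in each of the 10 libraries, both axes on a log scale, with circles for Egfr KO PSC, squares for Egfr WT PSC and numbers for the replicate. Libraries high in one gene were mostly high in the other, and Egfr WT PSC library 5, at 8.40 CPM of Muc13 and 29.6 CPM of Muc20, departs from this.

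Both genes lie on chromosome 16, and the 250 bases before their starts are shown because these are the most abundant of the measured members. Muc13-201 starts 122 bases from the second of the 2 RefSeq starts of Muc13, so the window before that start is given. The windows are chr16:33794239-33794488 on the plus strand for Muc13 and chr16:32797436-32797685 on the minus strand for Muc20 (RefSeq, GRCm38.p6), with motifs in capitals.

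Muc13: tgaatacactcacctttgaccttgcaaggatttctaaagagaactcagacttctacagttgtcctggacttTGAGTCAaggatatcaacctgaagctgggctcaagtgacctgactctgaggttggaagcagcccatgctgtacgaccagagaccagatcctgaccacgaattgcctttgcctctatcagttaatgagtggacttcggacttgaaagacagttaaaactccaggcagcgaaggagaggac
Muc20: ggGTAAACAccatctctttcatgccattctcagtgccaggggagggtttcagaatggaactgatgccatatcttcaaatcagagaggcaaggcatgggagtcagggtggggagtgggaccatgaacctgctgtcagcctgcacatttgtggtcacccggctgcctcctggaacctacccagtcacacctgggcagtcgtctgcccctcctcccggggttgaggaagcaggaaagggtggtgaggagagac

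The Muc13 window held the AP-1 motif 179 bases before the start, and the window of the other Muc13 start held it 61 bases before. The Muc20 window held the FOXA motif on the opposite strand 248 bases before the start. Of 32841 promoter windows of the same length, 6.75% held the AP-1 motif and 3.17% the FOXA motif on either strand. The TATA box was in 12.4% of all windows, the GC box in 32.7% and the GATA motif in 16.6%, and none of them was in these 3 windows. The E box was in 66.2%, and each of the 3 held 2 of them. A match is a match of letters and no evidence of binding.

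The gel-forming mucins Muc5ac and Muc5b were low in both groups. Muc5ac, the mucin of gastric surface and airway goblet cells, had 4.19, 3.26, 3.33, 1.86 and 5.94 CPM in Egfr KO PSC libraries 1 to 5, against 3.03, 2.001, 4.06, 3.86 and 1.73 CPM in Egfr WT PSC libraries 1 to 5. The groups overlapped, and only Egfr KO PSC libraries 1 and 5 were above all Egfr WT PSC libraries. The log2 fold change was 0.34 (95% interval -0.38 to 1.06, adjusted p = 0.819 in edgeR), and without Egfr KO PSC library 5 it was 0.11. Measured per length, Muc5ac averaged 0.514 ± 0.202 TPM in Egfr KO PSC and 0.422 ± 0.168 TPM in Egfr WT PSC libraries (SD, n = 5 each). Of its counts, 71.5% in Egfr KO PSC and 74.1% in Egfr WT PSC libraries were assigned to Muc5ac-202 and the rest to Muc5ac-203, transcripts that share 93.2% of the 31-base words of Muc5ac-202.

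Muc5b, the other large airway and salivary mucin, had 3.45, 2.28, 4.65, 0.619 and 1.29 CPM in Egfr KO PSC libraries 1 to 5, against 1.86, 1.93, 1.47, 2.46 and 2.17 CPM in Egfr WT PSC libraries 1 to 5. The Egfr KO PSC libraries held both the highest and the lowest values and enclosed the whole range of the Egfr WT PSC libraries. The SD was 1.63 CPM around a mean of 2.46 in Egfr KO PSC and 0.371 CPM around a mean of 1.98 in Egfr WT PSC libraries (n = 5 each). The log2 fold change was 0.32 (95% interval -0.63 to 1.26, adjusted p = 0.873 in edgeR), and without Egfr KO PSC library 3 it was -0.04.

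Muc15, a small membrane mucin best known from milk fat globules, had 0 counts in all 5 Egfr KO PSC libraries and in Egfr WT PSC libraries 1 to 4, and 3 counts in Egfr WT PSC library 5. A count of 0 allows up to 3 counts. Without TMM factors that is 0.0567 to 0.0759 CPM in Egfr KO PSC libraries and 0.0557 to 0.0714 CPM in Egfr WT PSC libraries. The limit covers counting error only, and no difference was detectable at this depth.

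For each tested member the 3 genes of most similar profile over the 10 libraries were taken from the 10465 genes that averaged 5 CPM or more. For Muc16 they were Uchl1, a neuronal deubiquitinase, with a Pearson r of 0.945, Acsl6, an acyl-CoA synthetase, with 0.944, and the nuclear receptor gene Nr2c1 with 0.940. For Muc13 they were Slc17a9 (r 0.96), a vesicular nucleotide transporter, Tirap (r 0.95), an adaptor of Toll-like receptors, and Leng9 (r 0.95). The Muc20 profile was closest to Grk5 (r 0.94), a receptor kinase, Klhdc7a (r 0.93) and Sftpd (r 0.93), a collectin of mucosal surfaces. For Muc5b the closest was Gkn1 (r 0.90), a secreted protein of gastric surface cells, then Cysrt1 (r 0.85) and Sdhaf3 (r 0.84). Muc5ac was closest to Slc7a11 (r 0.91), the cystine transporter, Tubgcp5 (r 0.90) and Dph1 (r 0.90). None of these 15 genes passed the edgeR test between the groups, with adjusted p of 0.396 or more, and neither did any of the 17495 genes tested. By rank, Spearman's rho ran from 0.60 for Muc5b with Sdhaf3 to 0.95 for Muc13 with Leng9. These r values are among the highest of 10465 genes over 10 libraries, so they can be high by chance. No chance level was computed.

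Among 16 other mucin and mucin-like genes, 12 were matched and 10 passed the filter, with 4 higher and 6 lower in Egfr KO PSC libraries and 0 past an unadjusted p of 0.05. Muc1 had 1061, 654, 408, 382 and 867 CPM in Egfr KO PSC libraries 1 to 5, against 1478, 816, 1269, 973 and 678 CPM in Egfr WT PSC libraries 1 to 5. Egfr KO PSC libraries 2, 3 and 4 were below all Egfr WT PSC libraries. The log2 fold change of Muc1 was -0.63 (95% interval -1.28 to 0.02, adjusted p = 0.632 in edgeR). Mucl3, a mucin-like membrane gene, spread from 2.24 to 40.5 CPM in Egfr KO PSC libraries and from 14.1 to 24.6 CPM in Egfr WT PSC libraries. Cd164, an endolysosomal sialomucin, averaged 409 ± 51.8 CPM in Egfr KO PSC and 400 ± 49.6 CPM in Egfr WT PSC libraries, and its highest library was 1.43 times its lowest.

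The rest of the list was low or moderate. Muc2, the intestinal gel-forming mucin, averaged 0.992 ± 0.275 CPM in Egfr KO PSC and 1.10 ± 0.317 CPM in Egfr WT PSC libraries. Muc3 averaged 0.831 ± 0.739 and Muc3a 0.559 ± 0.506 CPM in Egfr KO PSC libraries, against 0.910 ± 0.914 and 0.529 ± 0.258 CPM in Egfr WT PSC libraries. How far these related genes share reads was not measured. The sialomucins Podxl and Emcn averaged 29.3 ± 13.7 and 1.91 ± 1.81 CPM in Egfr KO PSC libraries, against 32.1 ± 4.56 and 2.27 ± 0.863 CPM in Egfr WT PSC libraries. Mcam averaged 7.05 ± 1.5 and Ovgp1, an oviduct glycoprotein, 2.56 ± 0.358 CPM in Egfr KO PSC libraries, against 8.72 ± 2.35 and 2.44 ± 0.394 CPM in Egfr WT PSC libraries (SD, n = 5 each). Mucl1 and Mucl2 had 0 counts in all 10 libraries. The edgeR adjusted p of the tested genes of this list other than Muc1 was 0.736 or more.

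Several genes that fold, pack and release mucins had low p-values before adjustment. Of 33 genes in this list, 29 were tested, 11 higher and 18 lower in Egfr KO PSC libraries, with a median log2 fold change of -0.36 against 0.00041 over all genes. At an unadjusted p under 0.05 there were 10 lower and 2 higher, or 41.4% of the list, beside 8.15% of all genes. This list, like the others, was chosen with earlier results of these data known, so the share is a description and no test. No gene of the list passed the edgeR test after adjustment. DESeq2 called 1, Xbp1, with an adjusted p of 0.0491. Macrophage and fibroblast markers had lower means in Egfr KO PSC libraries as well. So did the 4 tuft markers above the filter (difference -0.85, exact permutation p = 0.0476, adjusted 0.190). All 5 listed tuft markers had a summed level of 20.8 to 107 CPM in Egfr KO PSC and 45.5 to 153 CPM in Egfr WT PSC libraries. The part of the tuft markers was not tested.

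The 4 genes of lowest p in that list were all lower in Egfr KO PSC libraries. Xbp1, a transcription factor of the unfolded protein response in secretory cells, averaged 31.9 ± 8.07 CPM in Egfr KO PSC and 53.6 ± 11.8 CPM in Egfr WT PSC libraries (SD, n = 5 each; log2 fold change -0.75 with SE 0.19, edgeR adjusted p = 0.396). Ern2, the endoplasmic reticulum stress sensor of mucous epithelia, averaged 14.0 ± 9.87 CPM in Egfr KO PSC and 34.9 ± 12.6 CPM in Egfr WT PSC libraries (log2 fold change -1.32 with SE 0.41, edgeR adjusted p = 0.457). Agr2, a disulphide isomerase needed in mice for intestinal Muc2, averaged 136 ± 62.0 CPM in Egfr KO PSC and 255 ± 87.1 CPM in Egfr WT PSC libraries (log2 fold change -0.91 with SE 0.32, edgeR adjusted p = 0.498). Cftr, the chloride and bicarbonate channel that lets secreted mucin unfold, averaged 48.0 ± 22.6 CPM in Egfr KO PSC and 127 ± 80.5 CPM in Egfr WT PSC libraries (log2 fold change -1.41 with SE 0.43, edgeR adjusted p = 0.440). In each of the 4 the groups overlapped. With the macrophage score as a covariate their log2 fold changes were -0.50 for Xbp1, -1.43 for Ern2, -0.78 for Agr2 and -1.85 for Cftr. For Xbp1, only Egfr KO PSC library 1, at 43.1 CPM, lay above the lowest Egfr WT PSC library, at 39.7 CPM.

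Enzymes that build O-linked sugar chains were nearly balanced. Of 38 genes 32 were tested, 13 higher and 19 lower in Egfr KO PSC libraries, with a median log2 fold change of -0.04 against 0.00041 over all genes. At an unadjusted p under 0.05 there were 1 higher and 3 lower, 12.5% of the list beside 8.15% of all genes, and none after adjustment or with DESeq2. C1galt1, which makes the core 1 chain on which most mucin sugars are built, averaged 41.2 ± 5.19 CPM in Egfr KO PSC and 31.6 ± 4.195 CPM in Egfr WT PSC libraries (log2 fold change 0.38 with SE 0.13, edgeR adjusted p = 0.481). The sialyltransferase gene St6galnac2 averaged 5.32 ± 1.89 CPM in Egfr KO PSC and 10.1 ± 3.24 CPM in Egfr WT PSC libraries (log2 fold change -0.92 with SE 0.28, edgeR adjusted p = 0.440). Chst4, a sulphotransferase, averaged 6.52 ± 2.91 CPM in Egfr KO PSC and 13.95 ± 7.17 CPM in Egfr WT PSC libraries (log2 fold change -1.095, edgeR adjusted p = 0.495). Galnt18, of the family that adds the first sugar, averaged 2.995 ± 0.936 CPM in Egfr KO PSC and 4.48 ± 1.06 CPM in Egfr WT PSC libraries (log2 fold change -0.58, edgeR adjusted p = 0.604).

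Transcription factors known to act on mucin genes gave few low p-values. Of 24 genes 19 were tested, 3 higher and 16 lower in Egfr KO PSC libraries, where 49.9% of all genes were lower, with a median log2 fold change of -0.21. At an unadjusted p under 0.05 there was 1 gene, 5.26% of the list beside 8.15% of all genes. That gene was Gata4, a factor of gastric and pancreatic epithelium, with 1.66, 2.47, 2.24, 0.881 and 1.89 CPM in Egfr KO PSC libraries 1 to 5, against 5.46, 4.44, 2.89, 3.43 and 3.56 CPM in Egfr WT PSC libraries 1 to 5. The groups did not overlap, as for 1.52% of all genes. The log2 fold change of Gata4 was -1.11 (SE 0.29, edgeR adjusted p = 0.396, DESeq2 adjusted p = 0.0259). Pdx1, the pancreatic and antral factor, averaged 28.9 ± 4.92 CPM in Egfr KO PSC and 37.1 ± 8.92 CPM in Egfr WT PSC libraries. The pioneer factor genes Foxa2 and Foxa3 averaged 1.59 ± 0.511 and 27.5 ± 9.60 CPM in Egfr KO PSC libraries, against 2.25 ± 0.402 and 36.4 ± 8.64 CPM in Egfr WT PSC libraries. Their edgeR adjusted p-values were 0.655, 0.674 and 0.704.

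Receptors, lectins and proteases that bind or shed membrane mucins gave no low p-value. Of 19 genes 17 were tested, 6 higher and 11 lower in Egfr KO PSC libraries, with a median log2 fold change of -0.02 and 0 at an unadjusted p under 0.05, beside 8.15% of all genes. Msln, the mesothelin that binds MUC16 in human cells, had 1863, 1305, 665, 1070 and 2808 CPM in Egfr KO PSC libraries 1 to 5, against 1077, 1182, 1156, 981 and 1238 CPM in Egfr WT PSC libraries 1 to 5. The Egfr KO PSC libraries spread around the narrow Egfr WT PSC range (log2 fold change 0.45, 95% interval -0.20 to 1.11, adjusted p = 0.723 in edgeR). For Msln it was 0.12 without Egfr KO PSC library 5 and 0.65 without Egfr KO PSC library 3 (edgeR adjusted p = 0.916 and 0.380). Lgals3, a galectin that binds mucin sugars, averaged 1475 ± 643 CPM in Egfr KO PSC and 1121 ± 261 CPM in Egfr WT PSC libraries (log2 fold change 0.40, edgeR adjusted p = 0.717), and without Egfr KO PSC library 5 its log2 fold change was 0.10. The serine protease gene Tmprss4 averaged 102 ± 61.7 CPM in Egfr KO PSC and 155 ± 44.1 CPM in Egfr WT PSC libraries, and the sheddase gene Adam10 211 ± 39.2 CPM in Egfr KO PSC and 252.1 ± 61.7 CPM in Egfr WT PSC libraries (edgeR adjusted p = 0.682 and 0.742).

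**Figure D5:**
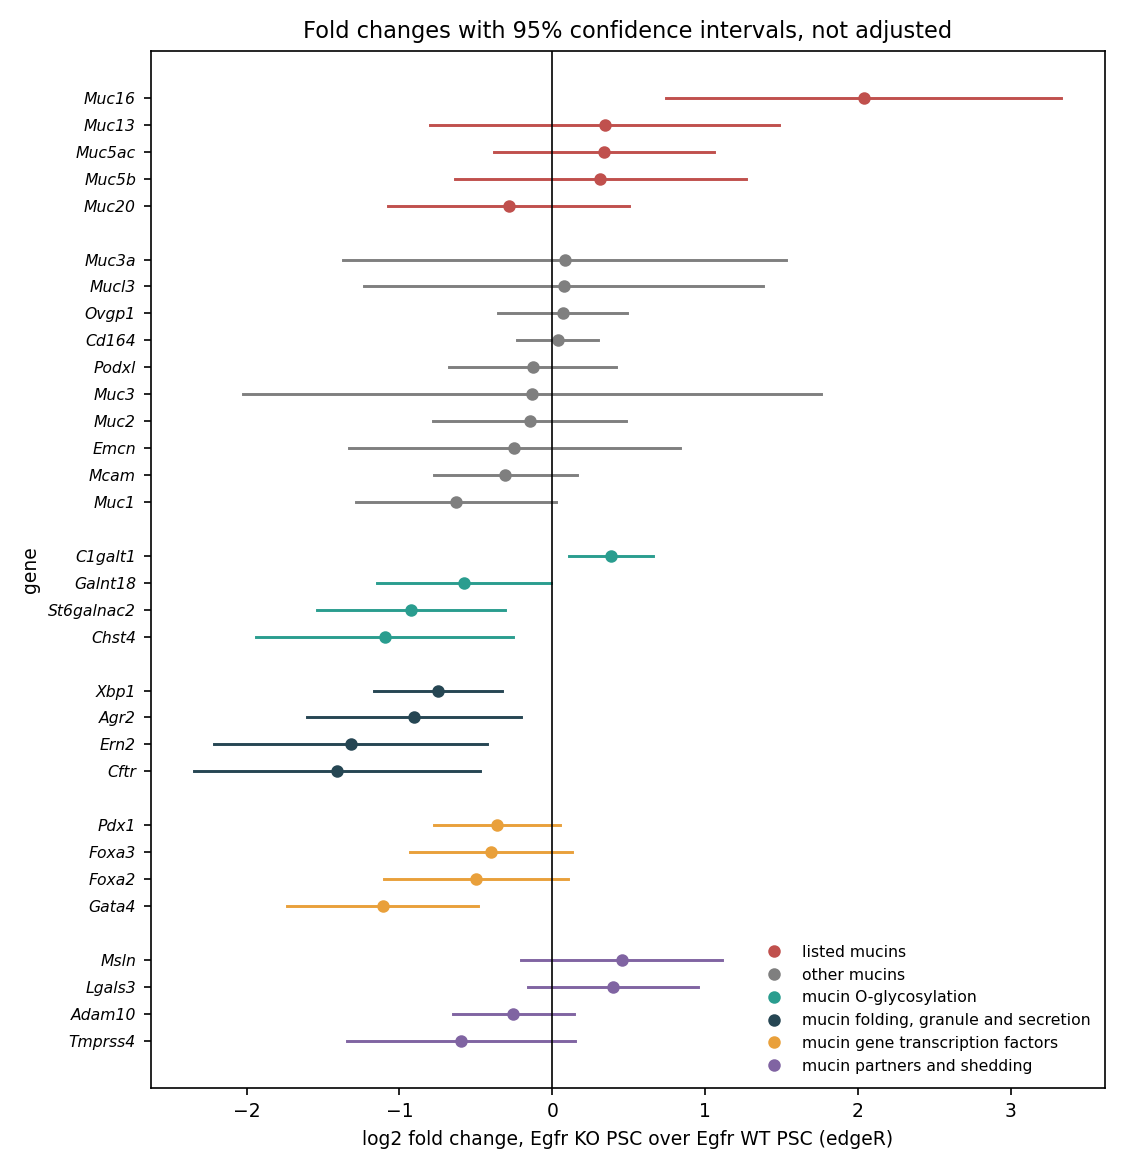
Log2 fold change (Egfr KO PSC divided by Egfr WT PSC) with its 95% confidence interval, not adjusted for the number of genes, for the 5 tested mucins, the 10 tested other mucins and the 4 genes of lowest p in each related list. Muc16 lies highest at 2.04, while the 4 genes of mucin folding and secretion lie between -0.75 and -1.41, and no gene passed the adjusted test.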

How the data were processed

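RNA was measured in 10 libraries, 5 per group, grouped by the stellate cell label. Per the labels' protocols, libraries came from a low-input kit with more PCR cycles for smaller inputs, and molecular identifiers are not mentioned, so duplicates cannot be told apart. The authors deposited expected counts and TPM per transcript, made with Salmon 1.9.0 and GRCm39 per the submitters' processing notes. The release of the annotation was not given in the sources used here. Effective lengths entered 1 alternative.

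Of 147828 transcripts, 137063 (92.7%) had a gene name in GENCODE M21 (GRCm38), matched by identifier without version, and the 10765 others were left out. They held under 2% of the counts. Counts were summed per gene and rounded, with 39534055 to 53816086 per library. No pair of libraries agreed within sampling noise (lowest chi-square per degree of freedom 39.0).

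The comparison used edgeR 4.0.16 (R 4.3.3) with TMM, the default filter (minimum count 10), the quasi-likelihood F test and Benjamini-Hochberg adjustment over 17495 genes at 0.05, and was tested on simulated data. DESeq2 1.42.0, limma 3.58.1, other filters, offsets, covariates and leaving out each library were alternatives. Single library measures used exact permutation over all assignments of 5 against 5, and correlations 100000 permutations. Sequences came from GENCODE M21 and from RefSeq (GRCm38.p6), which held promoters for Muc13, Muc16 and Muc20 among the measured members.

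The members and all gene lists were chosen with earlier results of these data known. Named genes were all members, all other mucins, the 4 of lowest p in each list and the 3 nearest profiles per member. Single genes added for a check of cell types were chosen from the marker lists after their values were seen.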

Additional observations from a re-analysis of the deposited data

Results flagged for a closer look

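Over 62 gene and library groups examined, 6 held 1 library far from the other 4 of its group, and chance alone marks about 1 group in 20. Tmprss4 was at 208.9 CPM in Egfr KO PSC library 1, against 91.5 CPM in the next highest library of the group. Lgals3 was at 2580 CPM in Egfr KO PSC library 5, with the next at 1398 CPM. Podxl and Emcn were both highest in Egfr KO PSC library 3, at 52.9 and 5.11 CPM, with the next at 26.4 and 1.41 CPM. Agr2 was at 406.3 CPM in Egfr WT PSC library 4, with the next at 248.7 CPM. Foxa2 was lowest in Egfr WT PSC library 1, at 1.56 CPM, with the next at 2.31 CPM. None of the 5 tested members of the 8 mucin genes had such a library in either group.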

How the results depend on the processing

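Over 22 other settings, 105 of 110 values of the tested mucins kept their direction and their side of the threshold. No gene was called in the analysis reported, 1 without the low-count filter, 127 with DESeq2, 1 with limma on log2(TPM + 1), 3 with a pseudocount of 0.1, and 0 to 4 without single libraries (4 without Egfr KO PSC library 1, 2 without Egfr WT PSC library 5). The DESeq2 count included 1 mucin, Muc16 (2.04 on the log2 scale), and Xbp1 (-0.74) and Gata4 (-1.10). Without single libraries, log2 fold changes spanned -0.042 to 0.57 for Muc5b, -0.013 to 0.59 for Muc13, -0.57 to 0.014 for Muc20, -0.26 to 0.002 for Muc2, -0.45 to 0.019 for Podxl, -1.02 to 0.002 for Emcn, -0.022 to 0.11 for Cd164, -0.76 to 0.56 for Muc3, -0.41 to 0.36 for Mucl3 and -0.54 to 0.39 for Muc3a. With the macrophage score as a covariate the direction turned for Muc20 (0.079), Podxl (0.16), Emcn (0.017), Cd164 (-0.088) and Mucl3 (-0.73), and with the fibroblast score for Mcam (0.11), Podxl (0.17), Emcn (0.48), Cd164 (-0.11) and Muc3a (-0.15). With the number in the deposited file name as a factor it turned for Muc2 (0.02), Mucl3 (-0.32) and Muc3a (-0.082), and with limma voom for Mucl3 (-0.55) and Muc3a (-0.50). With log2 TPM it turned for Muc3 (0.077 and 0.55 at pseudocounts of 1 and 0.1), Mucl3 (-0.44 and -0.58) and Muc3a (-0.025 and -0.24), and with the length offset for Muc3 (0.42). The correlations of Muc5b with Muc13 and Muc16 became 0.06 and 0.60 without 2 libraries. The cause was not tested. No paired analysis was possible because the labels give no replicate numbers.

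Depth limits Muc16, Muc5ac, Muc5b and Muc15, which had 0 to 280 counts per library. With 1 clone, genotype and clone cannot be told apart, and the RNA input of single libraries was not given.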
